A study of Homo sapiens with 6 samples.

Results

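Among 31820 wide H3AcK9 peaks of untreated cells, 1371 lay over at least 3 separate treated peaks in each of 4 treated peak lists while no more than 50% of their bases were covered in any of them. These 1371 peaks, called broken peaks here, make up 4.31% of the wide peaks, and the untreated list held 376666 peaks in all. Wide peaks are those of at least 2000 and under 10000 bp on chromosomes 1 to 22 without 13 and 21, which are not in all of the lists. The treated peaks that overlap a broken peak are called its pieces, and a piece counts from an overlap of 1 bp, with only the bases inside the broken peak counted as covered. The broken peaks were chosen by the number of pieces and the covered share, so both are given as a description and without a test. The other wide peaks serve for comparison, above all the 16015 that were covered over more than 50% of their bases in each treated list, called kept peaks, while 14434 belonged to neither class.

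The peaks come from chromatin of SKOV3 WT cells, a human cell line grown from an ovarian carcinoma, precipitated with an antibody against H3AcK9, histone 3 acetylated at lysine 9. The cells were untreated, or had been exposed for 24 h to vorinostat or for 24 h to romidepsin, each at 1 times its IC50. There was 1 ChIP sample per condition, and each treated sample was split in 2 parts for sequencing, which gave 2 peak lists per drug and 1 untreated list. The split is given by the sample labels, whereas other descriptions of the same data speak of independent experiments or biological replicates, and which holds could not be settled from the lists. The lists of a drug are therefore not taken as replicates here, nothing that differs between the conditions can be set against a spread of samples, and the read depth behind a peak is unknown because a peak list holds no reads.

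Acetylation of lysine 9 on histone 3 marks active promoters and enhancers. It is added by acetyltransferases and removed by histone deacetylases. Vorinostat, a hydroxamic acid, and romidepsin, a cyclic depsipeptide, both block the zinc-dependent deacetylases. Human endogenous retroviruses (HERVs) are remnants of ancient germ line infections whose long terminal repeats can act as promoters.

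The word broken needs a limit at the outset, because the lists differ in how closely neighbouring peaks may lie. The smallest gap between neighbouring peaks was 509 bp in the untreated list, 205 bp in both vorinostat lists and 201 bp in both romidepsin lists. The smallest peak was 127 bp wide in the untreated list, 51 bp in both vorinostat lists and 50 bp in both romidepsin lists. A treated list can thus show gaps that the untreated list never shows. When the treated peaks were joined across gaps of up to 508 bp, 51 of the 1371 broken peaks (3.72%) still met the rule. The values below describe the lists as deposited, and those after joining stand beside them.

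The files number bases as in hg19, since 1984 untreated and between 4898 and 5791 treated peaks per list lie past the chromosome ends of hg38, the build that the sample labels name. Genes and sequence could be assigned only where a HERV locus is listed with positions in both builds. This was the case for 2 broken peaks, of which 1 is described here. The start of its locus is shown because peaks of all 5 lists cover it, unlike the broken peak further inside the locus. The HERVIP locus 2100 starts 1593 bp ahead of its broken peak. The sequence is the first 300 bases of the locus in GRCh38, on the plus strand and 5′ to 3′, and capitals mark a match to CCAAT or its complement ATTGG, a box bound by the factor NF-Y in many promoters.
HERVIP locus 2100, chr6:27178264-27178563: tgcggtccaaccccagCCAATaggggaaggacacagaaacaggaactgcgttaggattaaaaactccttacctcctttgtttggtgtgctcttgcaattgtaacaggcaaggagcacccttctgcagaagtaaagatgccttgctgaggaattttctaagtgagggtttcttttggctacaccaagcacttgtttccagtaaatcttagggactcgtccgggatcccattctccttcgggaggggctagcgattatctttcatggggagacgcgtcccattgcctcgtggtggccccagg
The HERVIP start holds 1 match and a GC content of 50.7%. CCAAT or ATTGG occurs in 34.6% of 35116 RefSeq promoter windows of 300 bases on GRCh38, so a match is common and says nothing about binding.

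In the HERVIP locus, the broken peak chr6:27147636-27151479 of 3844 bp had 12.7% and 20.5% of its bases covered after vorinostat and 33.1% and 23.6% after romidepsin. It lay over 3 and 4 pieces with vorinostat and 4 and 4 with romidepsin. This peak is 1 of the 51 that met the rule after joining as well, with 12.7%, 20.5%, 40.1% and 29.1% covered in the same order. The locus holds 8263 bp in both builds (hg19 chr6:27146043-27154305), of which peaks covered 5929 bp in untreated cells, 1438 and 1863 bp with vorinostat, and 2269 and 1584 bp with romidepsin. The start of the locus did not share in this. All 300 bases shown above were covered in each of the 5 lists. In GENCODE the locus overlaps an exon of the lncRNA ENSG00000290009, and the histone genes H2AC12 and H2BC12, which encode H2A and H2B proteins of the nucleosome, lie 30702 and 31409 bp away.

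The other broken peak at a HERV locus showed the drugs in the opposite order, with 45.3% and 40.2% of its bases covered with vorinostat and 17.1% and 16.7% with romidepsin. The HERV loci listed by the study were picked on these samples. There were 83 of them, and 75 wide peaks overlapped 1 of them, of which 2 were broken (2.67%, beside 4.31% of all wide peaks) and 40 kept.

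The broken peaks spanned 5.03 Mb in all and were 2000 to 9698 bp wide, with a median of 3366 bp. The median was 3894 bp for the kept peaks, 2593 bp for those of neither class and 3095 bp for all wide peaks. In vorinostat list 1, 33.7% of their bases were covered, in list 2 33.8%, in romidepsin list 1 35.1% and in list 2 35.4%. The kept peaks stood at 75.2%, 73.1%, 74.9% and 73.3%. The covered share of a single broken peak ran from 6.76% to 49.99% with a median of 34.4% in vorinostat list 1, and the medians of the other lists were 34.2%, 35.5% and 36.3%. The median number of pieces was 4 in each list, with quartiles of 3 and 5, and the highest numbers were 10, 12, 13 and 12. Per kb of untreated peak there were 1.12, 1.14, 1.19 and 1.20 pieces, against 0.756, 0.798, 0.828 and 0.859 in the kept peaks. The broken peaks thus held more and sparser pieces, which is what the rule asked for.

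Each condition of the rule alone was common. At most 50% of the bases were covered in each list in 6106 wide peaks, and at least 3 pieces lay in each list in 13039. The limit cuts through a continuous range. Just inside it, the peak chr1:1347548-1352049 had 41.8%, 50%, 25.5% and 27.6% of its bases covered in the vorinostat and romidepsin lists. Just outside, chr18:12362088-12366929 had 31.7%, 27.3%, 50.02% and 47.4%. Peaks that met the rule in some lists were more frequent than those that met it in all, with 4856 in exactly 1 list, 4879 in 2 and 1939 in 3. Of the 4298 wide peaks broken in both vorinostat lists, 31.9% are among the 1371, while 4180 of all 31820 were broken in both romidepsin lists. Of these 4180, 32.8% are among the 1371, while 13.5% of all wide peaks were broken in both vorinostat lists.

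The pieces were short. The rule asked for at least 3 pieces and at most 50% covered in broken peaks, and kept peaks were covered over more than 50%. Widths and gaps of pieces are therefore not independent of the choice of the peaks and are given as a description. Their median width was 248 and 246 bp with vorinostat and 256 and 259 bp with romidepsin, where the pieces of kept peaks measured 753, 696, 745 and 700 bp. The gaps between pieces of a broken peak had medians of 436, 430, 416 and 413 bp, against 292 to 306 bp in kept peaks. A gap of at most 508 bp, which the untreated list cannot show, made up 58.1% to 61.0% of the gaps in broken peaks and 83.6% to 86.1% in kept peaks. The largest gap of a broken peak had a median of 832, 829, 826 and 807 bp, wider than the untreated minimum of 509 bp, while in kept peaks it was 406 to 425 bp. The widest piece held, at the median, 44.8% to 47.5% of the covered bases of a broken peak. Between 58.6% and 63.0% of the broken peaks had a piece that crossed an edge of the untreated peak.

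Joining the pieces changed these values by steps. Across gaps of up to 300 bp, 378 of the 1371 still met the rule, and 40.1% to 42.7% of the bases of all 1371 were covered. Up to 508 bp, the median number of pieces was 2, the covered share 50.4%, 51.1%, 53.6% and 54.4%, and between 205 and 242 of the peaks were a single piece in a given list. Up to 1000 bp, the median was 1 piece, 71.0% to 76.4% of the bases were covered, and none met the rule. The 51 that remained at 508 bp were 2201 to 8922 bp wide, with a median of 4161 bp. Their median covered share after joining was 34.5% and 36.2% with vorinostat and 33.9% and 34.1% with romidepsin. Taken as the lowest mean share after joining, and so chosen after the values were seen, chr6:7400289-7404434 had 7.50%, 41.9%, 14.8% and 14.98%, chr1:157117982-157122409 had 30.0%, 12.7%, 18.0% and 20.8%, and chr11:34991887-34996047 had 14.4%, 19.2%, 20.0% and 32.2%. Even among these, lists of 1 sample differed by as much as 7.50% and 41.9%.

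Whether peaks of the treated lists are broken by the untreated list in the same way was counted with the same rule. Of the wide untreated peaks, 19.6% and 21.6% were broken by the lists for vorinostat, and 19.3% and 20.8% by those for romidepsin. Of the wide treated peaks, 0.547% and 0.257% of the vorinostat ones and 0.930% and 0.778% of the romidepsin ones were broken in the untreated list. Between lists of the same sample, 0.147% to 1.04% were broken, and between the drugs 2.31% to 8.72%. The values of both directions changed once the smallest gaps were made alike by joining the treated peaks. After joining, the wide treated peaks are a different set, which holds the filled gaps and peaks made wide by the joining. The directions after joining can therefore not be set against those before it. Joining fills gaps and merges pieces, so it can only lower the share of untreated peaks broken in treated lists. The smallest peak widths of the lists stayed unlike, and the cause of the change was not tested. With treated peaks joined across gaps of up to 508 bp, the mean over the 4 lists fell from 20.4% to 3.64% for untreated peaks in treated lists, and rose from 0.628% to 4.43% for treated peaks in the untreated list.

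The largest members show how the pieces are laid out. The widest, chr12:56956998-56966695 with 9698 bp, held 8 and 10 pieces with vorinostat and 11 and 11 with romidepsin, with 37.8%, 38.8%, 47.9% and 46.9% of its bases covered. Both romidepsin values lie above both vorinostat values, with means of 47.4% and 38.3%. The next, chr1:168419020-168428430 with 9411 bp, held 7, 6, 13 and 12 pieces and was covered over 37.6%, 34.1%, 42.8% and 37.7%. Here the drugs do not overlap in the number of pieces, and in covered share they nearly touch. On chromosome 15, chr15:55484301-55493305 with 9005 bp was covered over 48.6% and 46.4% with vorinostat and 32.6% and 43.1% with romidepsin. By pieces, chr1:149902959-149911457 matched the widest with 8, 10, 11 and 11, and chr4:108636846-108643813 held 9, 9, 12 and 10.

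Vorinostat and romidepsin were compared within each broken peak. A peak was counted as covered more with a drug where both of its lists lay above both lists of the other and the means were at least 1.5-fold apart. Romidepsin covered more in 223 broken peaks (16.3%), beside 14.5% of all wide peaks, and vorinostat in 128 (9.34%), beside 8.03%. Both shares are near those of all wide peaks, which join unlike classes, since the shares were 0.999% and 0.874% in the kept peaks and 29.4% and 15.8% in the wide peaks of neither class. When pieces under 150 bp were left out the shares nearly met, at 7.38% with romidepsin and 7.70% with vorinostat of 610 peaks. The largest excess with romidepsin was in chr14:93559397-93562546, with 40.7% and 48.3% covered against 8.25% and 13.3% with vorinostat. In chr9:38374304-38377038 the values were 44.8% and 43.3% against 10.97% and 10.9%, at 4 pieces in each list. The largest excess with vorinostat was in chr2:69125639-69128452, with 42.9% and 49.7% against 11.1% and 11.8%, at 3 pieces in each list. In chr5:132170830-132176886, vorinostat covered 49.6% and 49.8% in 7 and 8 pieces, and romidepsin 16.4% and 15.97% in 4 and 3. No second sample of either drug was there to set these differences against.

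At the level of bases, the vorinostat and romidepsin lists covered partly different positions. Within the broken peaks, 40.8% of the bases were covered in no treated list, 11.3% in 1, 29.2% in 2, 6.37% in 3 and 12.3% in all 4. In the kept peaks 9.63% were covered in none and 54.4% in all. Of the bases of broken peaks, 13.1% were covered in both vorinostat lists and neither romidepsin list, and 14.5% in both romidepsin lists and neither vorinostat list. Both vorinostat lists covered 28.5% of the bases, and 43.2% of these were also in both romidepsin lists, which covered 30.0%, and 41.0% of those were also in both vorinostat lists. In the kept peaks these shares were 78.0% and 78.5%, and in the wide peaks of neither class 53.7% and 47.3%. In the latter, 30.9% of the bases were covered in no list and 18.6% in all 4. There, 11.5% were covered in both vorinostat lists only and 15.2% in both romidepsin lists only. Partial sharing was thus not particular to the broken peaks. The rule capped the coverage of each list, so these shares describe the broken peaks and are not independent of their choice.

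Between the lists of 1 sample, 84.3% to 85.5% of the covered bases of broken peaks were shared, with either list of a pair taken as the first. Between lists of different drugs the share was 44.6% to 48.5%, above the covered share of 33.7% to 35.4%. The lists of a sample thus shared more than the lists of different drugs in each of the pairs. In a single broken peak, the share of bases in all 4 lists ran from 0% to 38.2% with a median of 10.3%. It was 0 in 36 broken peaks (2.63%), beside 7.58% of all wide peaks and 16.5% of those of neither class. No broken peak was without uncovered bases, and the share of bases in no list ran from 17.2% to 75.0%, with a median of 40.04%. When a base counted as covered in any list, the median share rose to 59.97%, and 1108 of the broken peaks (80.8%) exceeded 50%.

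The pieces were spread over the whole length of the broken peaks. Over 10 equal parts of their length, the covered share ran from 29.4% to 34.7% in vorinostat list 1, from 29.3% to 36.2% in list 2, from 31.8% to 37.3% in romidepsin list 1 and from 32.5% to 36.9% in list 2. In the kept peaks it rose from the edges to the middle, from 65.9% to 82.3% in vorinostat list 1. In the wide peaks of neither class it ran from 36.7% to 42.2% in vorinostat list 1 and from 42.9% to 46.3% in romidepsin list 1. A nearly even spread was thus not particular to the broken peaks. The outermost of 5 equal parts on either side together held 38.4%, 38.4%, 40.1% and 39.5% of the coverage of broken peaks. In kept peaks they held 36.6%, 36.5%, 37.98% and 38%, where an even spread would give 40%. Covered shares and not bases were summed over peaks here, so a peak did not count more for its width. In both vorinostat lists the lowest part of the broken peaks was the second from the start, not the outermost, and a piece that crosses an edge counts in the outermost part.

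Their surroundings were also compared. In the 5 kb on each side, 26.1% and 24.6% of the bases were covered with vorinostat, 30.0% and 28.4% with romidepsin, and 30.6% in untreated cells. The untreated mean is lowered by the smallest gap of 509 bp, with 0% covered in the nearest bin of 500 bp and 22.4% in the next. In the bins from 5000 to 1000 bp outside, 34.5% to 36.0% were covered in untreated cells. There the vorinostat lists ran from 24.3% to 26.99% and the romidepsin lists from 27.9% to 31.6%. The covered share inside exceeded that of the flanks by 1.29-fold, 1.38-fold, 1.17-fold and 1.25-fold. For kept peaks these ratios were 2.02, 2.11, 1.69 and 1.74. In the wide peaks of neither class these ratios were 1.49, 1.56, 1.395 and 1.45. The rule capped the inside coverage of broken peaks, and kept peaks were chosen above the same limit. The ratios are therefore not independent of the choice of the peaks and are given as a description. In treated cells, the broken peaks, with their capped coverage, were covered only a little more than their flanks. In windows of 100 kb the median coverage around broken peaks was 29.8% in untreated cells, 23.3% and 21.8% with vorinostat and 26.9% and 25.1% with romidepsin. Around kept peaks it was 34.2%, 29.6%, 27.7%, 36.5% and 34.3%, so both kinds lay in regions with many other peaks.

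The share of wide peaks that were broken differed between classes of width. The rule asks for at least 3 separate pieces, which need room, so these shares are not independent of it and are a description. The share was 3.30% at 2000 to 2999 bp, 6.86% at 3000 to 3999 bp and 5.85% at 4000 to 4999 bp. It then fell from class to class to 1.10% from 9000 bp. The share of kept peaks was 32.5% at 2000 to 2999 bp and 87.1% from 9000 bp. The last class held 4 broken peaks of 364, with an exact 95% binomial interval of 0.300% to 2.79% that covers counting error only. By chromosome, the share ran from 1.98% on chromosome 19 (42 of 2117, interval 1.43% to 2.67%) to 6.25% on chromosome 12 (92 of 1471, interval 5.07% to 7.62%). Both are the extremes of the 20 chromosomes, picked after the values were seen. Chromosome 19, the most gene-dense of the human chromosomes, also had the highest share of kept peaks, at 60.6%.

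Broken peaks mostly stood alone among themselves. They are 4.31% of the wide peaks, so wide spacing follows in part from their number. How often other wide peaks lay within 50 kb of a broken peak was not counted. The nearest other broken peak was a median of 295 kb away, and 223 (16.3%) had another within 50 kb. The nearest wide peak of any kind was a median of 6.40 kb away, so they were not isolated from other wide peaks. The far more numerous kept peaks lay a median of 11.5 kb from the next kept peak. Linking broken peaks within 50 kb gave 1148 singles, 90 pairs, 10 groups of 3, 2 of 4 and 1 of 5. The group of 5 spanned chr17:37128072-37274129, where 13 wide peaks lay in 146 kb, and the groups of 4 spanned chr17:74145822-74212648 and chr20:35348860-35453838. These were singled out after their values were seen.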

How the data were processed

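H3AcK9 ChIP-seq of SKOV3 WT cells comprised 3 ChIP samples, 1 for each condition. The 3 input samples were not used. According to the methods and labels, reads were aligned by the authors and MACS 1.4.2 was run with a p-value cutoff of 1e-05. Each peak was deposited by the authors with its start, end and a score whose scale is not given in the sources used here. The score served only as a filter. The reads behind a peak are unknown. The 2 lists of a treated sample were kept apart and not treated as replicates, since the labels describe 1 sample that was divided.

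Overlaps, covered bases, gaps and shares were obtained in Python 3.11.15 with SciPy 1.17.1, pandas 2.3.3, Matplotlib 3.10.9 and NumPy 2.4.6. Overlap counts equalled those of bedtools 2.31.1 in 4 of 4 lists, and the functions were tested on simulated data. Intervals are exact Clopper-Pearson at 95%. With 1 sample per condition no test was made. The rule for the broken peaks and the lists of loci were chosen with earlier results of these data known. Broken peaks were named as the 6 widest, the 6 with most pieces, the 4 with the largest excess of each drug, those at HERV loci and the 3 next to the limit on each side, of which the text gives a choice. Alternatives were single lists, filters on peak width and score, joining across gaps of 300 or 1000 bp and other limits of the rule, while joining across 508 bp was chosen after seeing the data. Positions against genes and gene lists were not analysed here, because an hg19 annotation was not at hand and no coordinates were converted. Position and sequence of the other broken peak at a HERV locus are not reported here.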

Additional observations from a re-analysis of the deposited data

Results flagged for a closer look

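On chromosomes 13, 21 and X, which the comparison of all lists leaves out, 270 of 1569 untreated peaks of the same width range (17.2%) were broken in both vorinostat lists. On the 20 chromosomes used, 4298 of 31820 (13.5%) were. This was singled out because it is a signal in data that no comparison above uses, and romidepsin could not be set beside it.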

How the results depend on the processing

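The number of broken peaks depended strongly on the processing. It was 2458 with the first list of each drug only, 2854 with the second only, 610 with treated peaks of at least 150 bp, 33 with a treated score of at least 1, 566 with an untreated score of at least 1, 378, 51 and 0 with treated peaks joined across gaps of up to 300, 508 and 1000 bp, 472 and 3134 with limits of 40% and 60% covered, and 162 with at least 5 pieces. With 0 peaks left, joining across 1000 bp gave no other value. The covered share for vorinostat and romidepsin was 34.1% and 35.9% with the first list only, 34.3% and 36.2% with the second, 36.8% and 36.8% with peaks of at least 150 bp, 30.0% and 28.5% with a treated score of at least 1, 26.8% and 28.4% at a limit of 40%, 41.1% and 42.9% at 60%, 38.5% and 38.5% with at least 5 pieces, 34.2% and 35.5% where a piece needed 50% of its own bases inside, and 34.3% and 34.5% after joining across 508 bp. For vorinostat it was 33.1% after joining across 300 bp and 34.3% with an untreated score of at least 1. The median number of pieces was 3 for either drug after joining across 300 or 508 bp, and 6 with at least 5 pieces. The outermost of 5 equal parts on either side, again without weight for width, held 37.8% of the coverage with peaks of at least 150 bp. They held 36.0% with a treated score of at least 1 and 40.7% at a limit of 40%. After joining across 300 and 508 bp they held 42.0% and 47.8%. The share of broken peaks covered more with romidepsin and with vorinostat was 7.38% and 7.70% of 610 with peaks of at least 150 bp. With at least 5 pieces the shares were 6.17% and 6.79% of 162. In both settings the shares nearly met, and the sets are too small for an order of the drugs. With a treated score of at least 1 the shares were 6.06% and 0% of only 33 peaks. The romidepsin share was 19.3% after joining across 300 bp and 18.4% at a limit of 40%. After joining across 508 bp, 3.64% of the wide untreated peaks were broken in a treated list. Of the joined wide treated peaks, 4.43% were broken in the untreated list. The latter are a different set from the wide treated peaks before joining, so the order cannot be compared. Apart from the smaller or larger sets that these settings leave by construction, the cause of these changes was not tested.

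All values rest on 1 sample per condition with unknown read depth, and whether the treated and untreated lists were called with like settings was not tested. No paired analysis was possible because there is 1 ChIP sample per condition.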
